A study of Saccharomyces cerevisiae with 9 samples.

Results

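The genes described here are the DAN and TIR wall mannoprotein genes of Saccharomyces cerevisiae together with TIP1: DAN1, DAN4, TIR1, TIR2, TIR3, TIR4 and TIP1. Members were the probes whose systematic name is the open reading frame of one of these genes. All 7 were on the array, with 1 probe each, among 6199 genes in all, and all 7 were among the 5814 genes measured well enough above background to be tested. The genes were chosen with their values in the sample groups already known, so the differences of these 7 genes between groups are given as a description. Counts of these genes past a threshold in the fit over all genes are printed below, but nothing is read from them.

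RNA came from BY4743, a diploid laboratory strain of the S288C background, in 3 groups of 3 samples, each read on 1 single-colour Agilent array. The groups were a vehicle control, HenGC and SoyGC. HenGC and SoyGC are what the series calls GC from the hen of the woods mushroom and from soybean. Both were given at 40 ug/ml for 17 h, and the labels give neither a dose nor a time for the vehicle. The letters GC are not spelled out in the labels, and neither the medium nor the aeration of the cultures is given there. The labels number the samples within a group but do not call them separate cultures, so the p-values below rest on a spread that may be technical.

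The products of these genes are serine- and threonine-rich, heavily mannosylated proteins that are carried to the cell surface on a GPI anchor and fixed in the cell wall. Most of them are known for their induction without oxygen, when yeast exchanges its aerobic wall proteins Cwp1 and Cwp2 for the Dan and Tir proteins, and TIP1, TIR1 and TIR2 are also known as cold-shock genes. In aerobic cells the DAN and TIR genes are repressed through factors such as Rox1 and Mot3 with the Tup1-Cyc8 corepressor, and without oxygen they are switched on by Upc2, which also activates sterol uptake genes.

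Signal was high throughout: the 75th percentile of an array ran from 5273 to 7803, with 92.4% to 95.8% of spots well above background and 0 saturated. The deleted marker genes HIS3, LEU2 and URA3 had at most 1 of 7 spots well above background on every array. Of the haploid mating genes, STE2, STE3 and MFA1 were detected on all 9 arrays, and 4 of the 5 listed genes were tested. MFA2, a mating pheromone gene, was well above background on 3 vehicle, 2 HenGC and 2 SoyGC arrays. It was thus tested through vehicle alone, the group where it was highest, so nothing is read from its p-values. The measured MFA2 difference was -0.68 ± 0.17 (SE) in SoyGC against vehicle (limma adjusted p = 0.0427, 0.0897 without vehicle 3). Over 23 alternatives this difference ran from -0.82 to -0.19, and the adjusted p ran from 0.00572 to 0.255 in the 22 that give a test. Vehicle 3 stood apart from the other arrays on the first principal component, at -41.7 against -3.64 to 14.6, with 56.3% of the variance on that component. It was scanned on scan day 2 with HenGC 3 and SoyGC 3, all on slide 3, while vehicle 1 and 2 and SoyGC 1 and 2 shared slide 1, and HenGC 1 and 2 lay alone on slide 2. On scan day 1, HenGC and slide therefore cannot be told apart.

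All 7 genes were well above background at 7 of 7 spots on all 9 arrays. Levels are given as log2 of the processed signal relative to the array's 75th percentile, so that 0 is the signal at that percentile. Levels of different genes come from different probes and are not set against each other. The standard deviation among the 7 spots of a probe ranged from 0.021 to 0.14 on the log2 scale, and the standard deviation among 3 arrays of a group ranged from 0.072 (TIR1, SoyGC) to 0.55 (DAN4, HenGC).

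DAN1 (YJR150C, chromosome X) encodes a wall mannoprotein that is hardly expressed in aerated cells. Its levels were 3.80, 3.95 and 4.34 in vehicle 1 to 3, 3.52, 4.03 and 3.92 in HenGC 1 to 3, and 3.19, 3.47 and 3.30 in SoyGC 1 to 3. Every SoyGC array lay below every vehicle and every HenGC array, while the HenGC and vehicle ranges overlapped. The SoyGC mean was 61.3% of the vehicle mean, a difference of -0.71 ± 0.18 (SE, n = 3 per group), and the HenGC mean was 86.8% of it, at -0.21 ± 0.18. In RNA from whole cultures, fewer cells expressing a gene and less RNA per cell cannot be told apart.

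DAN4 (YJR151C) is the next gene along and encodes a larger mannoprotein of the same anaerobic set. Vehicle 1 to 3 were at -0.82, -0.63 and 0.03, HenGC 1 to 3 at -1.43, -0.47 and -0.50, and SoyGC 1 to 3 at -2.09, -1.56 and -1.92. HenGC 1 lay nearer to SoyGC than the other HenGC arrays did, yet the SoyGC arrays were again below all 6 others. DAN4 had the largest differences of the 7 genes between SoyGC and either other group: SoyGC was at 38.3% of vehicle (-1.38 ± 0.30) and at 48.2% of HenGC (-1.05 ± 0.30). HenGC minus vehicle was -0.33 ± 0.30, about as large as its error.

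TIR3 (YIL011W, chromosome IX) encodes a Tir protein required for growth without oxygen. It read 3.97, 4.09 and 4.53 in vehicle, 3.39, 4.01 and 3.96 in HenGC, and 3.08, 3.46 and 3.20 in SoyGC. SoyGC and vehicle did not overlap, but HenGC 1 fell just under SoyGC 2, so SoyGC and HenGC did. The SoyGC mean was 51.8% of vehicle (-0.95 ± 0.20), and HenGC minus vehicle, at -0.41 ± 0.20, was the lowest HenGC value among the 7 genes.

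TIR4 (YOR009W, chromosome XV), likewise needed for anaerobic growth, had 3.69, 3.86 and 4.29 in vehicle, 3.35, 3.85 and 3.81 in HenGC, and 3.06, 3.27 and 3.18 in SoyGC. The order of arrays was close to that of TIR3, with vehicle 3 highest and HenGC 1 lowest of its group, and SoyGC lay below all other arrays. Against vehicle the SoyGC mean was 58.4% (-0.78 ± 0.18) and the HenGC mean 82.6% (-0.28 ± 0.18).

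TIP1 (YBR067C, chromosome II), the founder of the family and a major wall mannoprotein, is induced by cold and by lack of oxygen. Levels of 3.12, 3.15 and 3.55 were read in vehicle, 2.94, 3.29 and 3.29 in HenGC, and 2.32, 2.68 and 2.42 in SoyGC. The HenGC and vehicle ranges overlapped, with vehicle 3 above every HenGC array and HenGC 1 below every vehicle array, and the 3 SoyGC arrays lay below both groups. SoyGC was at 57.4% of vehicle (-0.80 ± 0.16) and 61.7% of HenGC (-0.70 ± 0.16), and HenGC minus vehicle was -0.10 ± 0.16.

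TIR2 (YOR010C), a cold-shock gene that lies next to TIR4, had a different order of groups. The vehicle arrays were at 3.91, 4.05 and 4.15, the HenGC arrays at 4.23, 4.35 and 4.01, and the SoyGC arrays at 3.72, 3.71 and 3.52. HenGC had the highest mean and SoyGC was below every other array, with the SoyGC mean at 76.5% of vehicle (-0.39 ± 0.12) and 68.5% of HenGC (-0.55 ± 0.12). HenGC minus vehicle was 0.16 ± 0.12, the 1 positive value among the 7 genes in any comparison.

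TIR1 (YER011W, chromosome V), another cold-shock mannoprotein gene and one needed for anaerobic growth, varied least. It was read at 5.58, 5.58 and 5.78 in vehicle, 5.74, 5.69 and 5.50 in HenGC, and 5.60, 5.47 and 5.49 in SoyGC. The 3 groups overlapped. SoyGC minus vehicle was -0.13 ± 0.10, HenGC minus vehicle was -0.003 ± 0.10 and SoyGC minus HenGC was -0.13 ± 0.10. The TIR1 signal of 268434 to 373645 was 59.2% to 70.5% of the brightest probe on the same array, and no spot was marked as saturated. Whether the response of so bright a probe was compressed was not tested.

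**Figure D1:**
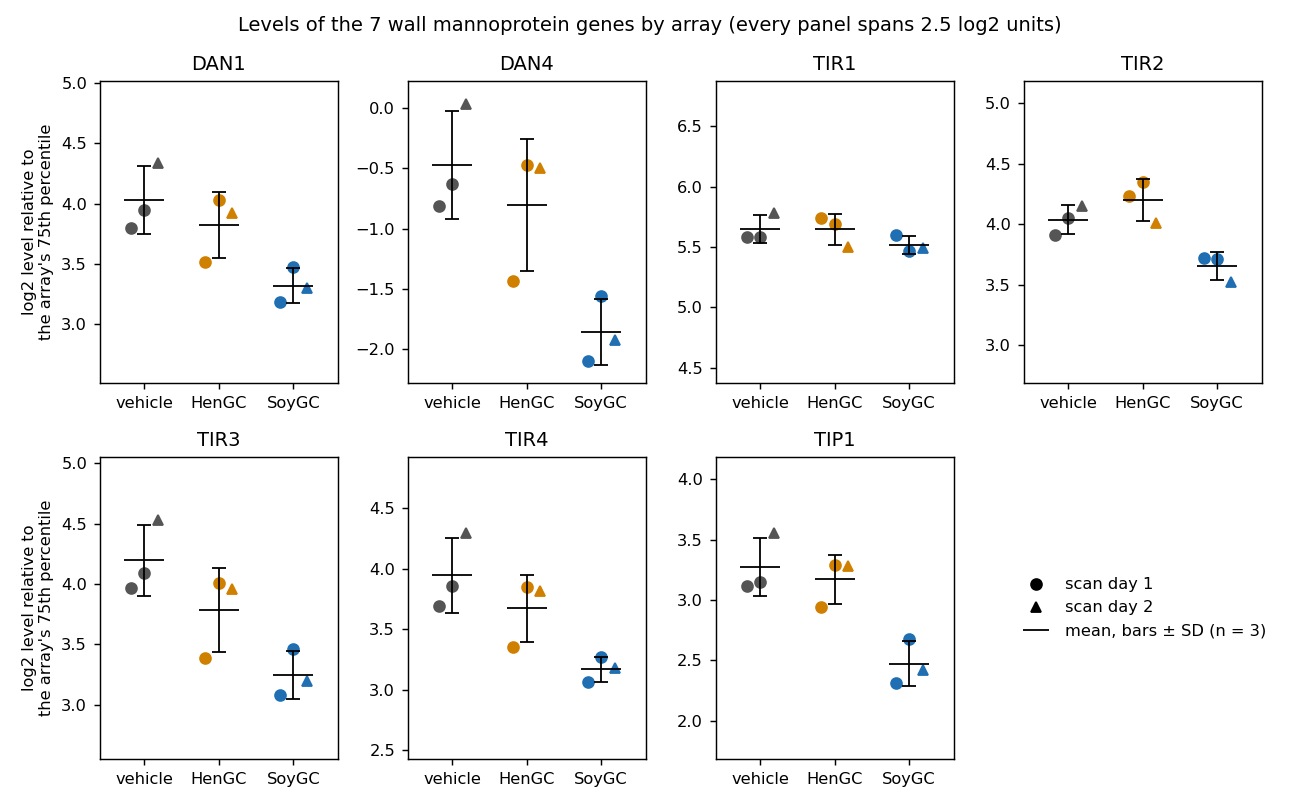
Level of each gene on each array (y axis, log2 of the processed signal relative to the array's 75th percentile) in vehicle, HenGC and SoyGC; circles were scanned on scan day 1 and triangles on scan day 2, and the horizontal line with bars is the mean ± SD of 3 arrays. The SoyGC points lie below all vehicle points for 6 of the 7 genes, TIR1 being the exception, and HenGC overlaps vehicle in every panel.

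Across the 7 genes the median difference was -0.78 for SoyGC minus vehicle, -0.54 for SoyGC minus HenGC and -0.21 for HenGC minus vehicle. Over all 5814 genes the medians were 0.004, -0.015 and 0.0004. Between SoyGC and vehicle all 7 differences were negative, as were 49.6% over all genes, and 6 of 7 genes had SoyGC wholly below vehicle, as did 20.5% of all genes. SoyGC was wholly below HenGC at 5 of 7 genes, against 10.5% over all genes. HenGC was wholly below vehicle at 0 of 7, against 17.7%.

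In limma's fit over all genes, DAN1, DAN4, TIR3, TIR4 and TIP1 had an adjusted p under 0.05 on the lower side in SoyGC against vehicle, and 5.93% of all genes did. None of the 7 genes passed lower in HenGC against vehicle (0 of 7, against 0.275%) or in SoyGC against HenGC, where 0% of genes passed and 738 of 5814 had an unadjusted p under 0.05. With slide as a fixed block 0 of the 7 passed in SoyGC against vehicle, and with scan day as a block the same 5 did. Since the genes were chosen on these same contrasts, nothing is read from these counts. The 5 genes that passed depended on single arrays: TIP1 alone passed without vehicle 3, DAN4, TIR3 and TIP1 passed without HenGC 2 or without HenGC 3, and 0 of 7 passed without vehicle 2 or without any 1 of the SoyGC arrays.

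**Figure D2:**
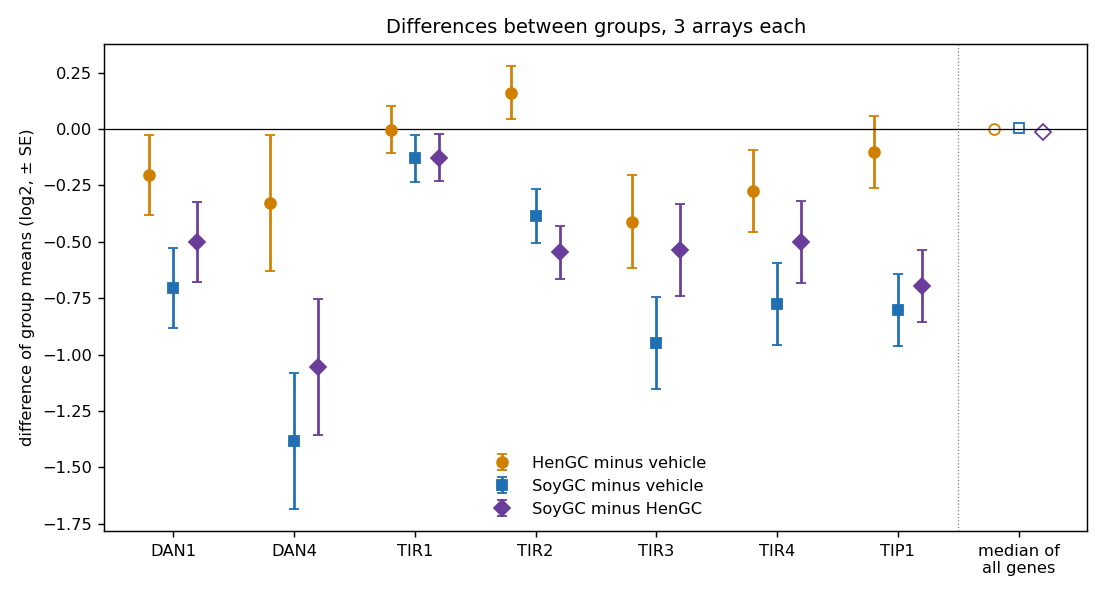
Difference of group means with its standard error (y axis, log2) for each gene in HenGC minus vehicle (circles), SoyGC minus vehicle (squares) and SoyGC minus HenGC (diamonds), with the median over all genes as open symbols at the right. SoyGC minus vehicle runs from -1.38 for DAN4 to -0.13 for TIR1, and HenGC minus vehicle from -0.41 for TIR3 to 0.16 for TIR2.

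Values were also taken within each scan day, where the sign is fixed for genes whose groups do not overlap. Within scan day 1, where vehicle 1 and 2 and SoyGC 1 and 2 shared 1 slide, the median of the 7 genes in SoyGC minus vehicle was -0.61, ranging from -1.10 (DAN4) to -0.049 (TIR1). Within scan day 2, with 1 array per group, it was -1.11, ranging from -1.95 to -0.29. Without vehicle 3 it was -0.60, with all 7 genes still below 0. For SoyGC minus HenGC the medians were -0.44 on scan day 1 and -0.63 on scan day 2.

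HenGC minus vehicle had both signs among the 7 genes. Its median was -0.10 within scan day 1, with 5 of 7 genes below 0, and over all 9 arrays 6 of 7 were below 0, as were 49.9% of all genes. Within scan day 2 the median was -0.42, with 7 of 7 below 0. Without vehicle 3 the median was -0.05 and 4 of 7 genes lay below 0, the exceptions being TIR1 (0.06), TIR2 (0.22) and TIP1 (0.04). In the order of the group means, 6 of 7 genes had SoyGC below HenGC below vehicle, as did 22.5% of all genes, but HenGC and vehicle overlapped at each of the 7.

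The spread among arrays of a group was itself shared by 5 of the 7 genes. These were DAN1, DAN4, TIR3, TIR4 and TIP1, a grouping made after the values were seen. All 5 were high in vehicle 3, by 0.42 (TIP1) to 0.76 (DAN4) relative to the mean of vehicle 1 and 2, and low in HenGC 1, by -0.35 (TIP1) to -0.95 (DAN4) relative to the mean of HenGC 2 and 3. Among SoyGC arrays, SoyGC 2 was the highest for each of them.

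TIR1 and TIR2 did not follow this pattern in HenGC. Relative to the mean of HenGC 2 and 3, HenGC 1 was 0.15 higher for TIR1 and 0.05 higher for TIR2, though for TIR2 it lay below HenGC 2, and both genes were lowest in HenGC 3. Both were higher in vehicle 3 than the mean of vehicle 1 and 2, by 0.20 and 0.17. Over the 9 arrays, deviations from the group mean correlated at 0.94 to 1.00 (Pearson's r) in the 10 pairs among the 5 genes, and at 0.89 to 1.00 without vehicle 3. For TIR1 with the same 5 genes r ran from -0.08 to 0.07, and from -0.69 to -0.57 without vehicle 3. For TIR2 with the 5 genes it ran from 0.22 to 0.34, and from -0.03 to 0.10 without vehicle 3. For TIR1 with TIR2 it was 0.75, and 0.70 without vehicle 3. The values of an array share its RNA, labelling and scaling, so these correlations are descriptions. What the RNA of vehicle 3 and HenGC 1 had in common with a high and a low level of these genes was not tested.

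**Figure D3:**
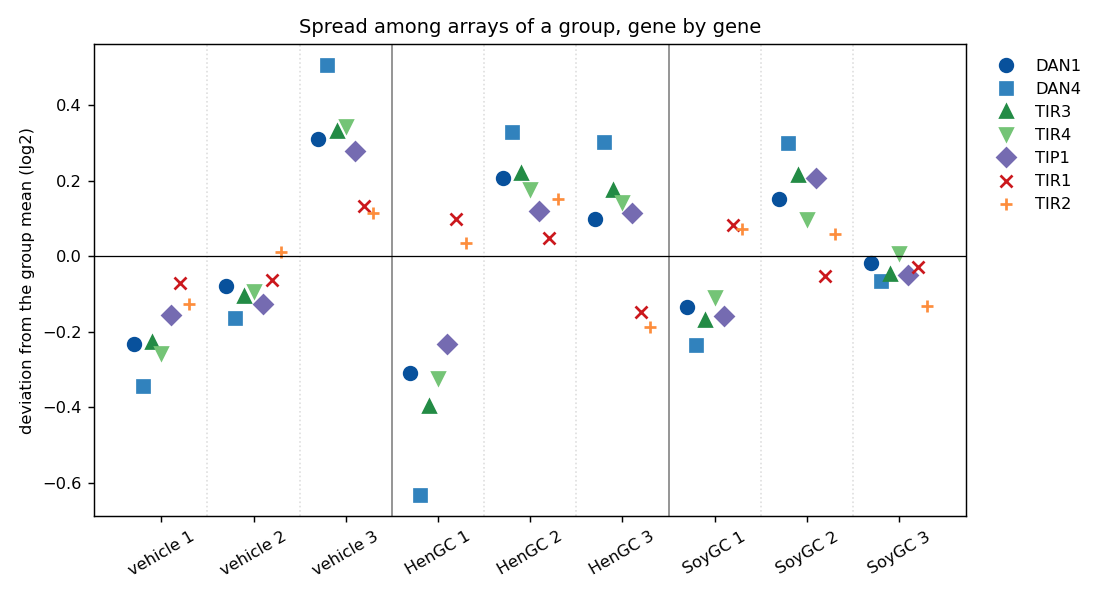
Deviation of each gene from the mean of its group (y axis, log2) on each of the 9 arrays (x axis); filled symbols are DAN1, DAN4, TIR3, TIR4 and TIP1, and crosses are TIR1 and TIR2. The filled symbols lie together above 0 in vehicle 3 and below 0 in HenGC 1, where the crosses lie above 0.

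Genes outside the family were ranked by their correlation with the mean profile of the 7 genes over the 9 arrays. PAU23, a seripauperin gene also named DAN2, came first at r = 0.99. It was also the nearest gene to DAN1 and to DAN4, though DAN, TIR and PAU probes could not be checked here for shared targets. Its 3 vehicle arrays were at -2.72, -2.69 and -2.43, its HenGC arrays at -2.94, -2.57 and -2.68, and its SoyGC arrays at -3.06, -2.98 and -3.11. PAU23 had SoyGC below all other arrays and HenGC 1 lowest of its group, like the DAN genes themselves.

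After PAU23 came TDA4, YMR181C, the vacuolar protease gene PRB1, the biotin synthesis gene BIO3, YDL187C, ALE2, TPH3, the phospholipase B gene PLB2 and YSR3, a phosphatase gene of long-chain base phosphates, down to r = 0.96. In all, 107 genes, or 1.84% of those tested outside the family, had r above 0.9, and the median over all of them was -0.05. By single gene, HMG2, an isoform of HMG-CoA reductase in the sterol pathway, was nearest to TIR3 (r = 0.99), YDL187C to TIR4 (0.98) and TDA4 to TIP1 (0.98). GID11, a substrate receptor gene of the GID ubiquitin ligase, was nearest to TIR2 (0.98), and YCR101C to TIR1 (0.93). These genes were picked for likeness to a profile that itself differs between groups, so their group differences are given no test as part of this selection. PAU23 and HMG2 also belong to lists below and were tested there as list genes.

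The seripauperins are a large family of nearly identical genes, mostly near chromosome ends, that share sequence with the DAN and TIR genes and are likewise induced without oxygen. Since shared targets were not checked, the values of single PAU, DAN and TIR genes are uncertain. This list and the gene lists below were chosen with earlier results of these data known. Their counts past a threshold, and the shares of all genes printed beside them, are therefore given as a description. Of 24 such genes measured, including PAU23 and PAU24 (DAN3), 16 fell in SoyGC against vehicle and 0 rose (limma adjusted p under 0.05, against 5.93% of all genes lower), with a median of -0.79 over the 24. All 24 values were negative. Those that fell lay between -0.97 (PAU20, adjusted p = 0.0386) and -0.73 (PAU5, adjusted p = 0.0439), and the other 8 between -0.70 and -0.35. Correlations between the PAU genes over arrays had a median of 0.97 in 276 pairs, so the 24 genes are far from 24 separate measurements. The count of 16 was 22 with scan day as a block and 1, PAU17 (adjusted p = 0.0473), with slide as a fixed block.

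In HenGC against vehicle 0 of the 24 passed, 14 had an unadjusted p under 0.05 on the lower side (12.8% of all genes), and the median was -0.47. In SoyGC against HenGC 0 passed and 2 were lower at that level (7.12% of all genes), with a median of -0.32. For PAU20 the interval of that last difference was -0.81 to 0.22 (95%). The count of 16 was 0 without vehicle 2, without vehicle 3 or without any 1 of the SoyGC arrays, 2 without vehicle 1, and 3 and 4 without HenGC 2 and HenGC 3. In HenGC against vehicle PAU17 passed with scan day as a block (-0.65, limma adjusted p = 0.0378). Over the alternatives 0 to 8 of the 24 passed lower in that comparison.

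Regulators of the DAN and TIR genes were measured next, and 0 of 12 passed in any of the 3 comparisons in the fit without a block. In SoyGC against vehicle, TUP1 (limma adjusted p = 0.0416) and SUT1 (0.0246) passed on the lower side with scan day as a block, TUP1 (0.0121) and ECM22 (0.0349) with array weights, UPC2 (0.0292) without HenGC 1, and 0 of 12 with slide as a fixed or random block. Without a block 5 of the 12 had an unadjusted p under 0.05 on the lower side, as did 16.7% of all genes, and 0 on the higher side. In HenGC against vehicle 1 was lower at that level, as were 12.8% of all genes. UPC2, the activator, was at -1.86, -1.62 and -1.51 in vehicle, -2.96, -1.72 and -2.07 in HenGC, and -2.73, -2.34 and -2.75 in SoyGC. SoyGC lay below vehicle without overlap, and HenGC 1 was the lowest array of all, as it was the lowest HenGC array for DAN1 and DAN4.

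The UPC2 difference was -0.94 ± 0.28 in SoyGC against vehicle (limma adjusted p = 0.0685) and -0.59 ± 0.28 in HenGC against vehicle (adjusted p = 0.264). Its levels correlated with those of DAN1 at 0.89 and of TIR3 at 0.93 over the 9 arrays, which 2.17% and 1.58% of genes outside the family reached. ECM22, a paralog of UPC2, was at -0.39 ± 0.11 in SoyGC against vehicle (adjusted p = 0.0612). The other regulators had larger adjusted p values in that comparison: the repressors ROX1 and MOT3 were at 0.33 ± 0.40 (adjusted p = 0.624) and 0.44 ± 0.23 (0.251), the corepressor genes TUP1 and CYC8 at -0.39 ± 0.14 (0.102) and -0.04 ± 0.20 (0.908), SUT1, which acts in sterol uptake, at -0.44 ± 0.22 (0.235), and the heme-responsive HAP1, impaired in this strain background by a transposon, at -0.36 ± 0.16 (0.167). MGA2 and SPT23, membrane-bound activators of OLE1, were at -0.65 ± 0.28 (adjusted p = 0.175) and -0.16 ± 0.11 (0.378), SUT2, a paralog of SUT1, at -0.08 ± 0.09 (0.582), and the repressor gene SFL1 at -0.13 ± 0.11 (0.484).

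Other genes known to respond to low oxygen were then compared. Of 15 hypoxic genes under Rox1, Mot3, Hap1 or Mga2, 5 fell and 1 rose in SoyGC against vehicle (limma adjusted p under 0.05), with a median of -0.44. Of all genes, 5.93% fell and 3.34% rose. The difference was below 0 for 13 of the 15 in SoyGC against vehicle and for 15 of 15 in SoyGC against HenGC. Over all genes these shares were 49.6% and 52.9%. HEM13, of heme synthesis, fell by 1.32 ± 0.32 (adjusted p = 0.0421), from 3.22, 3.48 and 3.66 in vehicle to 1.95, 2.65 and 1.80 in SoyGC. The others that fell were IZH4, a membrane protein gene of zinc and sterol metabolism (-1.78 ± 0.46, adjusted p = 0.0469), YML083C (-1.66 ± 0.34, 0.0306), the sterol acyltransferase gene ARE1 (-0.82 ± 0.20, 0.0427) and HMG2 (-0.74 ± 0.15, 0.0306). HMG2 was also named above as the gene nearest to TIR3, so its fall is not a separate result.

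CYC7, the cytochrome c isoform made in greater share without oxygen, went the other way. It rose by 0.68 ± 0.15 in SoyGC (adjusted p = 0.033) and by 1.07 ± 0.15 in HenGC against vehicle (adjusted p = 0.0186), where it was the 1 hypoxic gene to pass. Of all genes, 0.912% passed on the higher side in HenGC against vehicle. ANB1, a classic Rox1 target, was at -0.17 ± 0.11 in SoyGC against vehicle (adjusted p = 0.359). Without vehicle 2, without vehicle 3 or without any 1 of the SoyGC arrays, 0 of the 15 passed in SoyGC against vehicle, and without vehicle 1 or HenGC 3 the count of 6 was 3. With slide as a fixed block 0 of the 15 passed in either comparison with vehicle. CYC7 did not pass in HenGC against vehicle without vehicle 2 or without any 1 of the HenGC arrays. In SoyGC against HenGC 0 passed and 5 had an unadjusted p under 0.05, all lower, as did 7.12% of all genes on the lower side. The HEM13 difference of -0.95 ± 0.32 in that comparison had a 95% interval of -1.68 to -0.21 (limma adjusted p = 0.313).

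Sterol genes under Upc2 and Ecm22 came next. Of 15 genes, 3 fell and 0 rose in SoyGC against vehicle, where 5.93% of all genes fell and 3.34% rose, with a median of -0.34. Besides ARE1 these were PDR11 (-1.82 ± 0.40, limma adjusted p = 0.0349) and AUS1 (-1.75 ± 0.46, adjusted p = 0.0484), the ABC transporters that import sterol when it cannot be made. AUS1 was at 1.31, 1.46 and 1.85 in vehicle, -0.08, 1.45 and 1.18 in HenGC, and -0.85, 0.69 and -0.48 in SoyGC. HenGC 1 was low and SoyGC 2 the highest of its group, the pattern of DAN1, DAN4, TIR3, TIR4 and TIP1. Without vehicle 2, without vehicle 3 or without any 1 of the SoyGC arrays 0 of the 15 passed, and without vehicle 1 or HenGC 3 the count was 1. It was 2 (PDR11 and ARE1) with scan day as a block and 0 with slide as a fixed block. None passed in HenGC against vehicle (0 of 15) or SoyGC against HenGC (0 of 15), with 4 and 1 lower at an unadjusted p under 0.05. Of all genes, 12.8% and 7.12% were lower at that level in these comparisons.

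Wall proteins of aerobic cells were compared because the Dan and Tir proteins replace some of them. CWP1 was at -0.66 ± 0.16 in HenGC against vehicle (limma adjusted p = 0.0763) and -0.35 ± 0.16 in SoyGC against vehicle (adjusted p = 0.183). CWP2 was at -0.30 ± 0.11 (adjusted p = 0.163) and -0.28 ± 0.11 (adjusted p = 0.127). Neither passed, and both had their lower value in HenGC. Between SoyGC and HenGC, CWP1 differed by 0.31 (95% interval -0.04 to 0.67) and CWP2 by 0.02 (-0.21 to 0.26).

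Of 27 aerobic wall mannoproteins and wall enzymes, 4 fell and 0 rose in SoyGC against vehicle, with a median of -0.31. Of all genes, 5.93% fell and 3.34% rose there. PST1, a GPI protein of stressed walls, fell by 0.97 ± 0.13 (adjusted p = 0.0123) and passed also without vehicle 3 (0.0201). The others were PIR3 (-0.61 ± 0.16, adjusted p = 0.0469), KRE1, of beta-glucan assembly (-0.52 ± 0.10, 0.0272), and the siderophore-binding FIT3 (-0.36 ± 0.09, 0.0441). Without vehicle 1, vehicle 3, HenGC 1 or HenGC 2 the count was 2, without vehicle 2 or SoyGC 3 it was 0, and without SoyGC 1 or 2 it was 1. With scan day as a block it was 9, and with slide as a fixed block it was 3 (PST1, KRE1 and FIT2). In HenGC against vehicle 0 passed and 10 were lower at an unadjusted p under 0.05 (12.8% of all genes). In SoyGC against HenGC 0 passed and 6 were lower at that level (7.12% of all genes). With scan day as a block PST1 passed in HenGC against vehicle (-0.62, adjusted p = 0.0434).

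The enzymes that make GPI anchors and add mannose, which these wall proteins need, had 4 of 21 genes lower and 0 higher in SoyGC against vehicle. Their median was -0.24, and 5.93% of all genes were lower and 3.34% higher there. The 4 lower genes were the protein mannosyltransferase genes PMT3 (-0.81 ± 0.16, adjusted p = 0.0306) and PMT6 (-0.63 ± 0.12, 0.0284), and the GPI synthesis genes GPI10 (-0.56 ± 0.12, 0.0355) and GPI13 (-0.51 ± 0.12, 0.0397) in limma's fit. In HenGC against vehicle PMT6 had nearly the same value, -0.58 ± 0.12 (adjusted p = 0.0595), and SoyGC minus HenGC was -0.04 (95% interval -0.31 to 0.23). Of the 21 genes, 0 passed in HenGC against vehicle, where the median was -0.26 and 10 were lower at an unadjusted p under 0.05 (12.8% of all genes). In SoyGC against vehicle 10 were lower at that level (16.7% of all genes). In SoyGC against HenGC 0 passed or were lower at that level (7.12% of all genes lower). The count of 4 was 1 without vehicle 3, 2 without vehicle 1, HenGC 1 or HenGC 2, and 0 without vehicle 2 or any 1 of the SoyGC arrays. It was 2 (PMT6 and GPI10) with slide as a fixed block, and with scan day as a block PMT6 (adjusted p = 0.0316) and GPI13 (0.0463) passed in HenGC against vehicle.

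TIP1, TIR1 and TIR2 are cold-shock genes, so 12 other genes of the cold response were listed. In SoyGC against vehicle 2 rose and 2 fell, with a median of 0.006, where 3.34% of all genes rose and 5.93% fell. NSR1, a nucleolar protein (0.68 ± 0.15, limma adjusted p = 0.0362), and the small heat-shock protein HSP26 (0.55 ± 0.12, 0.033) rose, and the trehalose synthesis genes TPS1 (-0.65 ± 0.15, 0.0389) and TPS2 (-0.56 ± 0.13, 0.0381) fell. In HenGC against vehicle HSP26 (0.65 ± 0.12, 0.0424) and HSP12 (1.60 ± 0.30, 0.0477) rose and 0 fell, where 0.912% of all genes rose. Without vehicle 3, HSP26 passed in SoyGC (0.0473) and in HenGC (0.0490) and NSR1, TPS1, TPS2 and HSP12 did not. In SoyGC against HenGC 0 of the 12 passed, with 8 lower and 1 higher at an unadjusted p under 0.05. Of all genes, 7.12% were lower and 5.57% higher at that level. The count of 4 in SoyGC was 0 without vehicle 2 or any 1 of the SoyGC arrays, 1 without vehicle 3 or HenGC 2, and 2 without vehicle 1 or HenGC 1. The count of 2 in HenGC was 1 without vehicle 3 or SoyGC 3 and 0 without any 1 of the other arrays. With slide as a fixed block the counts were 1 (TPS1) in SoyGC and 0 in HenGC. With scan day as a block HSP26 and YRO2 passed in HenGC against vehicle (adjusted p = 0.0434 and 0.0374) and HSP12 did not.

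**Figure D4:**
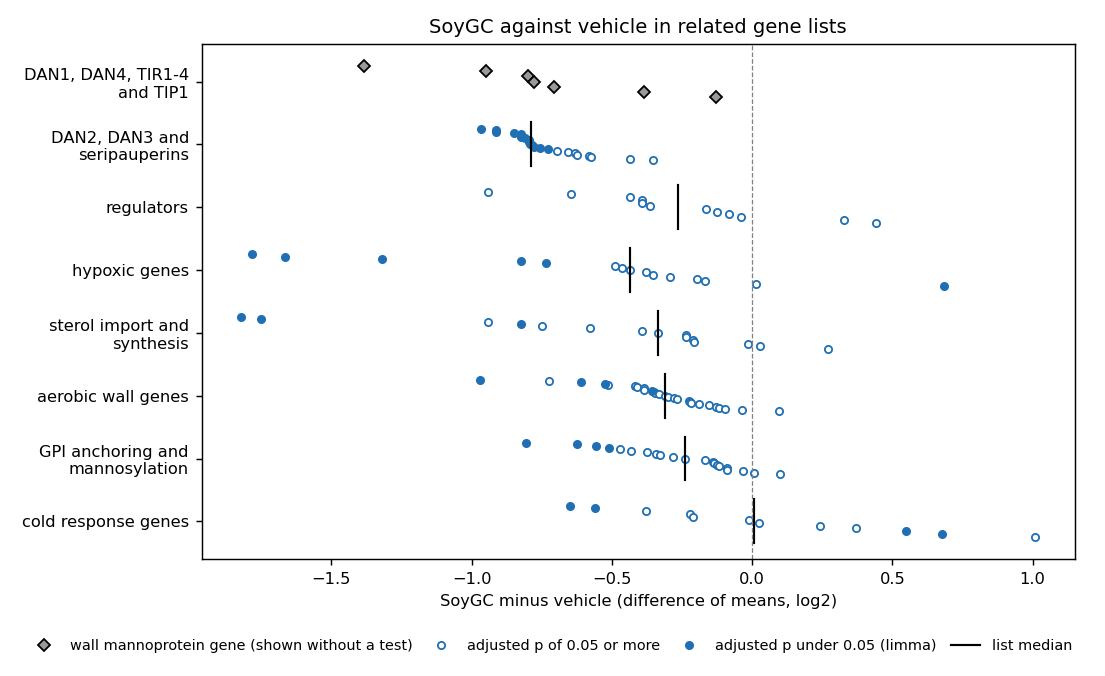
SoyGC minus vehicle (x axis, log2 difference of means) for the 7 wall mannoprotein genes (grey diamonds, shown without a test) and for the genes of each related list (circles, filled where limma's adjusted p was under 0.05), with the list median as a vertical line. The seripauperin median, -0.79, lies beside that of the 7 genes, -0.78, while the cold response list is centred near 0 and no regulator passed in this fit, which has no block.

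Several of the 7 genes lie side by side, and gene order in the R64 gene table places the sterol importers beside them. DAN1 and DAN4 are neighbours, TIR4 and TIR2 are neighbours with AUS1 next to TIR2, and PDR11 lies 2 genes from TIR3, with YIL012W between them. Counting 2 measured genes on each side gave 20 genes outside the family, of which 4 fell and 0 rose in SoyGC against vehicle, at a median of -0.20. Of all genes, 5.93% fell and 3.34% rose in that comparison. In HenGC against vehicle and in SoyGC against HenGC 0 of the 20 passed.

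The 4 that passed lower were AUS1, PDR11, DAL5 and YOR008C-A, of which YOR008C-A could be tested only through its vehicle signal. DAL5, an allantoate permease gene next to DAN4, fell by 1.64 ± 0.32 (limma adjusted p = 0.0284). It was at -1.05 ± 0.32 in HenGC against vehicle (adjusted p = 0.134), with HenGC 1 to 3 at -0.81, -0.52 and -0.28 below vehicle arrays at 0.30, 0.74 and 0.50. YOR008C-A, next to TIR4, was well above background on 3 vehicle, 1 HenGC and 0 SoyGC arrays. It entered the test through vehicle alone, the group where it was highest, so nothing is read from its p-value. Its measured difference was -1.96 (limma adjusted p = 0.0296), a value that rests on those dim signals. With the processing used here it was at least 1.45-fold lower in SoyGC than in vehicle, a bound that the p-value does not test. The bound, 0.54 on the log2 scale, belongs to this processing: over 23 alternatives the measured difference ran from -2.15 to -0.38. That bound sets the vehicle mean against the lowest signal marked as well above background on each SoyGC array, or the probe's own signal where that was higher.

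Neighbours did not all move with the member beside them. SLG1 and YOR012W, at the ends of the TIR4 and TIR2 stretch, were at -0.07 ± 0.10 and 0.01 ± 0.09 in SoyGC against vehicle (limma adjusted p = 0.672 and 0.941). DOT5, on the other side of TIR3 from PDR11, was at -0.09 ± 0.09 (adjusted p = 0.561), and BAP2, beside TIP1, was at 0.10 ± 0.21 (0.782). PDR11 correlated with TIR3 at r = 0.98 over the 9 arrays, a value that 0.0689% of genes outside the family reached with TIR3. AUS1 correlated with TIR4 at 0.92 and with its immediate neighbour TIR2 at 0.60, which 1.41% and 11.6% of genes reached. DAN1 and DAN4 correlated at 0.99, and TIR4 and TIR2 at 0.67. The count of 4 was 0 without vehicle 2, SoyGC 1 or SoyGC 3, and 1 without vehicle 3, where it was DAL5 (adjusted p = 0.049), or without SoyGC 2. With slide as a fixed block it was 1 (YOR008C-A, adjusted p = 0.0473). Nothing is read from that count, since YOR008C-A was tested through vehicle alone.

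**Figure D5:**
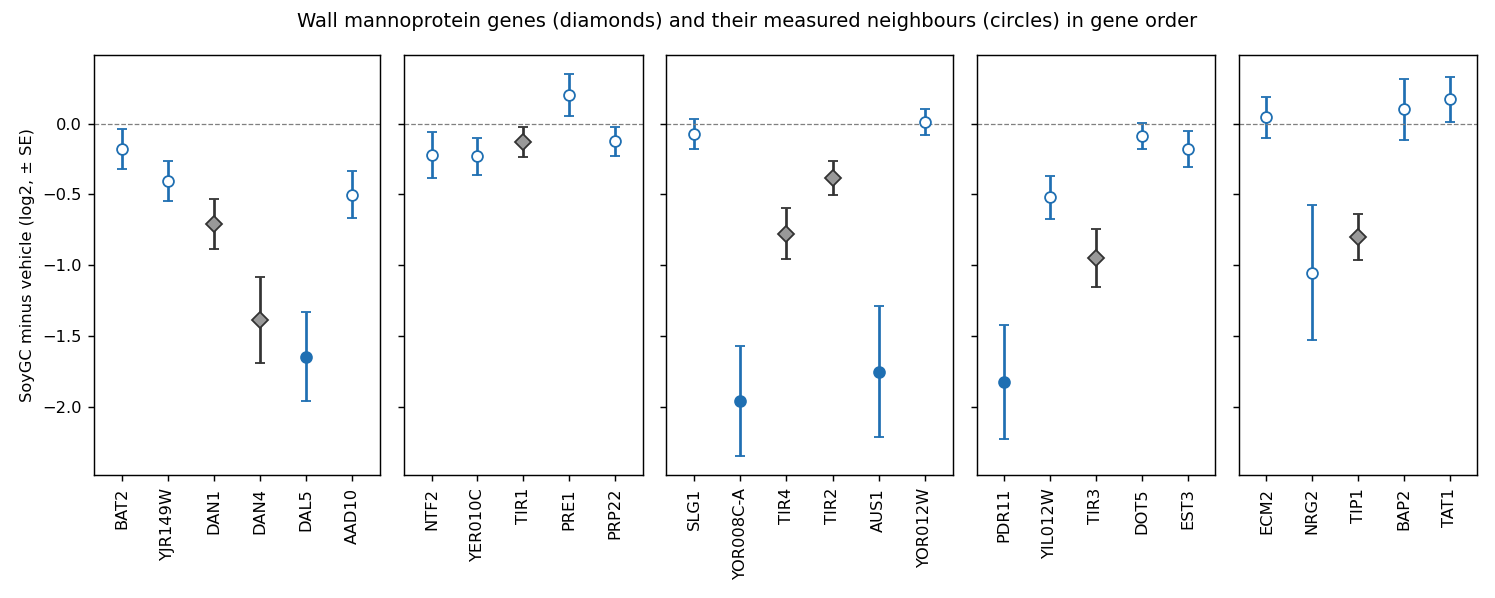
SoyGC minus vehicle (y axis, log2 difference of means ± SE) for the 7 wall mannoprotein genes (grey diamonds, shown without a test) and 2 measured neighbours on each side (circles, filled where limma's adjusted p was under 0.05), in gene order in 5 stretches. AUS1 and PDR11 lie lower than the TIR genes near them, TIR1 and its neighbours lie between -0.23 and 0.20, and the point of YOR008C-A is its measured mean, which was not well above background in SoyGC.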

How the data were processed

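Per the labels' protocols, RNA was extracted by hot phenol and RNeasy columns, and Cy3-labelled cRNA was hybridised. The authors deposited scanner files whose processed signal is a linear fluorescence intensity per spot, background-subtracted and detrended by Agilent Feature Extraction 11.0.1.1, per the file headers and the submitters' processing notes. Their deposited table holds linear means of the 7 spots of each of 6256 probes, equal for 100% of values at a relative tolerance of 1e-06, and served as an alternative.

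Here log2 of the processed signal minus the array's 75th percentile was averaged over spots, without control and outlier spots. Probes with over 50% of spots well above background on all 3 arrays of a group were tested, the brightest per gene. Names came from the files and the R64 gene table. The headers name another build, so no coordinates are given. limma 3.58.1 in R 4.3.3 fitted the 3 group means to all 9 arrays, with Benjamini-Hochberg adjustment over 5814 genes and a threshold of 0.05, and SE is the moderated standard error. The fit was tested on simulated data in which genes and arrays varied independently, so array effects shared by many genes were not covered.

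The genes and the lists were chosen with earlier results of these data known, so counts of list genes past the threshold are descriptions. Named are the 7 genes, list genes past the threshold (up to 12 per list), fixed regulators, CWP1, CWP2, 2 neighbours on each side and the 10 genes most alike in profile. ANB1, MGA2, SPT23, SUT2 and SFL1 were named after their values were seen. The labels do not say whether replicate numbers pair the samples, and the main fit did not pair them. Alternatives changed the background correction, scaling, filters, blocks, array weights and arrays used.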

Additional observations from a re-analysis of the deposited data

Results flagged for a closer look

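For TIR1 and TIR2 the difference between HenGC and vehicle had opposite signs on the scan days. TIR1 was 0.14 higher in HenGC on scan day 1 and at -0.28 on scan day 2. TIR2 was 0.31 higher on scan day 1 and at -0.14 on scan day 2. Scan day 2 holds 1 array per group, vehicle 3 among them, and the HenGC arrays of scan day 1 had a slide of their own. The difference between days was not tested.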

How the results depend on the processing

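Over 23 alternatives all 7 genes had a negative SoyGC minus vehicle difference, and their median ran from -1.11 (within scan day 2) to -0.58 (array weights), and from -0.88 to -0.60 with 1 array left out. The number with an adjusted p under 0.05 ran from 0 to 6: it was 0 in the authors' unscaled table, with only the 2 groups compared, with slide as a fixed block and within scan day 1. Since the 7 genes were chosen on these same contrasts, nothing is read from such counts of them, here or with the replicate block below. HenGC minus vehicle changed sign in 5 of 23 for TIR1 and 2 of 23 for TIR2 and TIP1. Of 69 genes past the threshold in HenGC against vehicle, the count was 39 after quantile normalization (33 higher, 6 lower), 3 in the unscaled table (3 and 0), 45 without the dim filter, 6 with only 2 groups, 125 with scan day as a block, 0 with slide as a fixed block, 862 with array weights (418 and 444), and 3 to 50 with 1 array left out. Of 539 in SoyGC against vehicle (194 higher, 345 lower), it was 8 in the unscaled table (2 and 6), 50 with only 2 groups, 188 with slide as a fixed block, 35 within scan day 1, 1246 with array weights and 2 to 387 with 1 array left out, and quantile normalization split it 187 to 202. SoyGC against HenGC had 0, then 1 without the dim filter and 23 with array weights. The causes were not tested. With the replicate number as a block, SoyGC against vehicle had 587 genes, 5 of the 7, a member median of -0.78, 22 of 24 PAU genes, 5 of 15 sterol genes and the regulators UPC2 and SUT1. Same-numbered arrays' deviations correlated at -0.65 to 0.56, over 0.1 in 5 of 9 pairs. The labels do not say whether a number marks a shared culture. The number of arrays limits the precision.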
